A study of Mus musculus with 4 samples.

Results

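Genes that bring iron into the cell, store it, release it and sense it were followed in C2C12, a mouse myoblast line able to fuse into myotubes. The 9 genes were taken by symbol from a table of 52636 genes: Tfrc, Steap3 and Slc11a2 for uptake, Fth1 and Ftl1 for storage, Ncoa4 for release from storage, Slc40a1 for export, and Aco1 and Ireb2 for sensing. Each symbol stood on a single row. Polyadenylated RNA was sequenced from 2 libraries of cells given 50 µM sesaminol, a lignan from sesame, and from 2 control libraries without it. All cells were in adipogenic medium, for up to 8 days. C2C12 is a single established line, and no label says whether separate cultures stand behind the 2 libraries of a group. The p-values therefore measure only the spread between these libraries, and part of it may be technical.

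Cells take up transferrin-bound iron through the transferrin receptor, reduce it in the endosome and pass it to the cytosol through a divalent metal transporter. Iron that is not used is stored inside ferritin, a shell built of heavy and light chains, and leaves the cell through ferroportin. The iron regulatory proteins, encoded by Aco1 and Ireb2, bind a hairpin called the iron-responsive element in mRNAs when iron is scarce. Binding in the 5′ UTR holds back translation of ferritin and ferroportin, and binding in the 3′ UTR shields the transferrin receptor mRNA from decay. Muscle holds much iron in myoglobin and mitochondria.

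The elements are printed first, to show which members carry them. They were searched for on the transcript strand in the UTRs of GENCODE M21 transcripts (GRCm38) as NNNNNCNNNNNCAGTGNNNNNNNNNNN, in which the last base of the loop was not G. All 5 pairs next to the loop and at least 3 of 5 pairs below the unpaired C had to form, with G-T pairs allowed. The capitals mark the CAGTGN loop, and each sequence is a window of 27 bases in the DNA alphabet.
Fth1, 5′ UTR, chr19:9982733-9982759, plus strand: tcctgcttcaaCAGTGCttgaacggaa
Ftl1, 5′ UTR, chr7:45459780-45459806, minus strand: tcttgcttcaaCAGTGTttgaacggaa
Slc40a1, 5′ UTR, chr1:45925466-45925492, minus strand: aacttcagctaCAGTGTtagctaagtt
Tfrc, 3′ UTR, match 1, chr16:32631220-32631246, plus strand: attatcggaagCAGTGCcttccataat
Tfrc, 3′ UTR, match 2, chr16:32631599-32631625, plus strand: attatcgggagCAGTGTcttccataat
Tfrc, 3′ UTR, match 3, chr16:32631664-32631690, plus strand: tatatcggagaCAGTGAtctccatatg
Tfrc, 3′ UTR, match 4, chr16:32631711-32631737, plus strand: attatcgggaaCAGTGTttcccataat

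The motif matched 4 of the 9 members. These are the ferritin, ferroportin and transferrin receptor mRNAs described above as carriers, so their matching was fixed in advance. Over all genes the motif matched 8 of 21200 with a 5′ UTR (0.0377%) and 26 of 21849 with a 3′ UTR (0.119%). Slc11a2, an mRNA form of which is known to carry such an element, did not match in these letters.

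Of the 9 iron genes, 2 rose with sesaminol and 0 fell. Ftl1, the ferritin light chain, rose 2.31-fold and Steap3, the endosomal ferrireductase that works beside the transferrin receptor, rose 1.90-fold. The other 7 did not pass the test, with log2 fold changes from -0.42 to 0.33. All 9 passed the filter on low counts. Calls are from edgeR's quasi-likelihood test, with Benjamini-Hochberg adjustment over all 18998 genes tested and a threshold of 0.05. Of all tested genes, 2.72% were called higher and 3.24% lower. The 2 members called were also the only members with an unadjusted p under 0.05, which 17.9% of all tested genes had, and DESeq2 and limma-voom likewise called 2 higher and 0 lower. The median log2 fold change was 0.21 over the members and 0.02 over all tested genes.

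**Figure D1:**
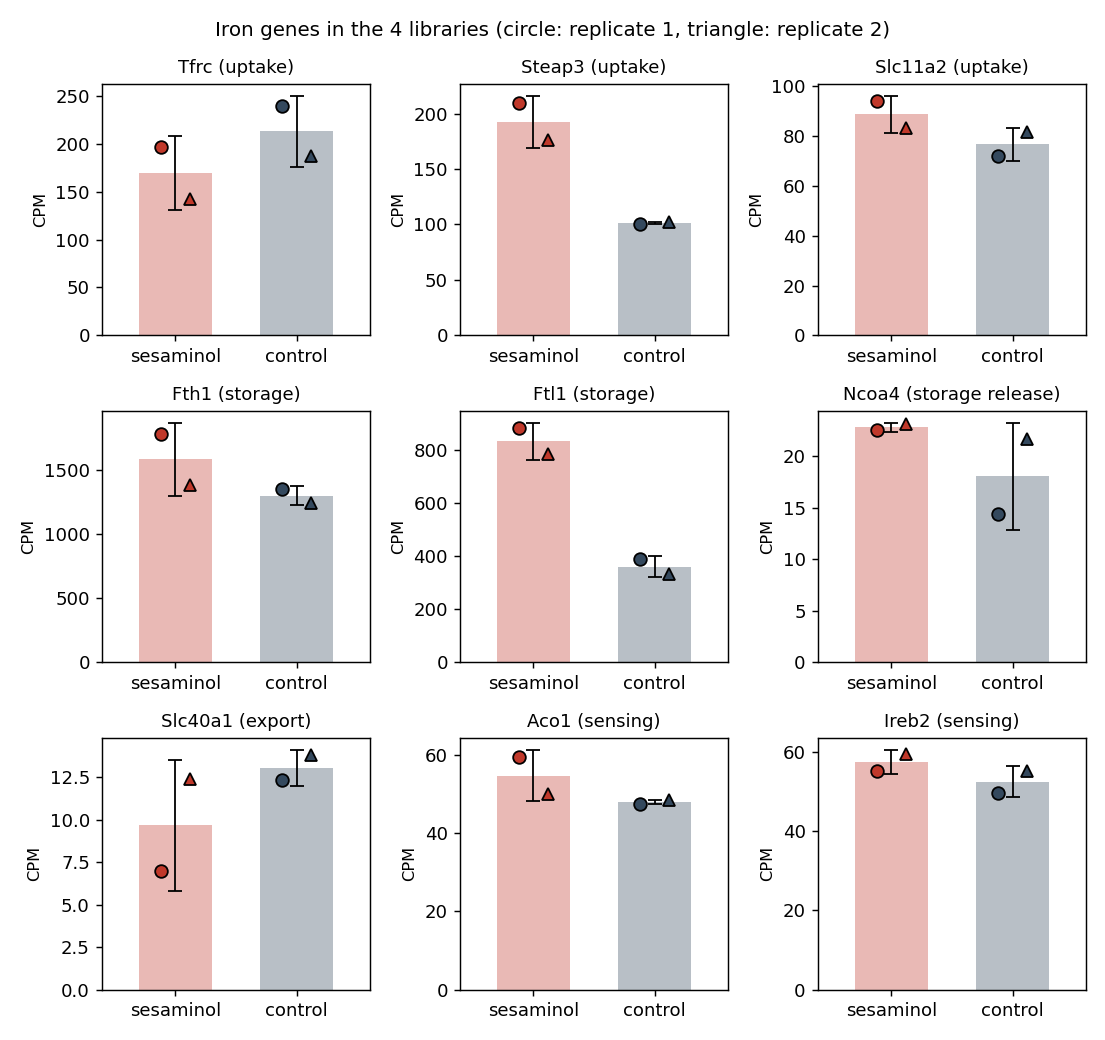
CPM (counts scaled to library size, linear axes from 0) of the 9 iron genes in sesaminol (red) and control (grey) libraries, with bars at the mean and error bars of 1 SD (n = 2). Ftl1 and Steap3 show the widest gaps between the groups, while the symbols of Tfrc, Slc40a1 and Ireb2 overlap.

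Total counts were 15807638 and 24362899 in the sesaminol libraries and 10283135 and 14083165 in the controls. Mitochondrial genes held 3.36% and 1.44% of counts with sesaminol, against 3.06% and 2.95% in controls, so sesaminol replicate 2 stood apart. The myoblast label was checked against its 6 markers, all of which were tested, of which 1 fell, 0 rose and 4 had an unadjusted p under 0.05. Myod1, which fell, stood at 208 and 139 CPM with sesaminol and 341 and 364 CPM in controls. Des, not called, had 2781 and 1582 CPM with sesaminol and 3232 and 3044 CPM in controls (edgeR adjusted p = 0.486). Pax7 and Cdh15 also lay lower without a call (edgeR adjusted p = 0.0709 and 0.091). Vcam1 lay the other way, at 112 and 83.2 CPM with sesaminol and 59.6 and 66.8 CPM in controls (log2 fold change 0.63, edgeR adjusted p = 0.105). The groups overlapped for Myf5, with a log2 fold change of 0.22. Of 10 myotube markers, 9 fell, and their summed level was 3950 and 3048 CPM with sesaminol against 9441 and 9292 CPM in controls. Fewer myotubes and less RNA per myotube cannot be told apart in bulk RNA, and the part of this shift in the changes below was not tested. Of 8 adipocyte markers 0 were called by edgeR, with 2 of the 5 tested at an unadjusted p under 0.05 and a median log2 fold change of -0.57. These were Cebpa, with 47.8 and 55.9 CPM with sesaminol and 35.8 and 24.5 CPM in controls, and Lpl, with 19.7 and 14.0 CPM with sesaminol and 24.2 and 25.6 CPM in controls. Adipoq stayed under 1 CPM in every library, and the summed level was 86.9 and 85.3 CPM with sesaminol and 77.9 and 64.9 CPM in controls. Of 7 macrophage markers 1 rose, Cd14, with 31.2 and 25.4 CPM with sesaminol and 10.3 and 8.33 CPM in controls. The summed level of the 7 was 48.3 and 47.6 CPM with sesaminol and 30.5 and 24.8 CPM in controls. In the other 4 tested the groups overlapped. Tyrobp and Lyz2 were at or under 0.397 CPM in every library.

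Among the uptake genes, Steap3 had 209 and 176 CPM with sesaminol, against 101 and 102 CPM in controls. Both sesaminol libraries lay above both controls, which were nearly equal. Steap3 (ENSMUSG00000026389, chromosome 1, 120190757 to 120272705, GRCm38) averaged 192 ± 23.7 CPM with sesaminol and 101 ± 0.884 CPM in controls (SD, n = 2 each). Its log2 fold change was 0.93 ± 0.17 (SE; edgeR adjusted p = 0.0156). No stretch of 50 bases of its main transcript occurs in a transcript of another gene, and no annotated gene overlaps it. Without control replicate 1 or 2, each of which leaves a single control, the log2 fold change was 0.91 and 0.93 but edgeR's adjusted p was 0.265 and 0.259 (from 4.14e-10 to 0.265 over 13 alternatives).

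Tfrc, the transferrin receptor, had 196 and 142 CPM with sesaminol, against 239 and 187 CPM in controls. The groups overlap, since sesaminol replicate 1 lay above control replicate 2. The log2 fold change was -0.33 ± 0.22 (SE; edgeR adjusted p = 0.507). Without sesaminol replicate 1, which leaves a single sesaminol library, it was -0.62. Over 13 alternatives the value for Tfrc ran from -0.62 to -0.11. Slc11a2, the divalent metal transporter DMT1 that moves iron out of the endosome, had 94.1 and 83.4 CPM with sesaminol and 72.0 and 81.5 CPM in controls. Its groups did not overlap but were close, and its log2 fold change was 0.21 ± 0.17 (SE; edgeR adjusted p = 0.615).

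The storage genes were the most abundant of the set. Ftl1 had 882 and 783 CPM with sesaminol, against 388 and 334 CPM in controls. Both sesaminol libraries lay far above both controls. Ftl1 (ENSMUSG00000050708, chromosome 7, 45457944 to 45459884, GRCm38) averaged 832 ± 69.8 CPM with sesaminol and 361 ± 38.3 CPM in controls (SD, n = 2 each). Its log2 fold change was 1.20 ± 0.21 (SE; edgeR adjusted p = 0.0125). Without control replicate 1 or 2 the value was 1.31 and 1.10 with edgeR adjusted p = 0.221 and 0.441 (from 1.66e-15 to 0.441 over 14 alternatives).

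The reads of Ftl1 cannot be assigned to it with certainty. Of the stretches of 50 bases in its main transcript, 90.6% also occur, on either strand, in transcripts of other genes, 73.4% in Ftl1-ps1. The other genes can include the rows named below that overlap Ftl1 itself. The Ftl1-ps1 row had 478 and 373 CPM with sesaminol, against 206 and 161 CPM in controls, a rise of 2.32-fold (edgeR adjusted p = 0.0131). Summed with its 3 named copies, Ftl1 had 1361 and 1157 CPM with sesaminol and 594 and 495 CPM in controls, and the log2 fold change was 1.21 ± 0.23 (SE; edgeR adjusted p = 0.0185). The rows Gm22133 (a miRNA on the same strand) and Gm10252 (opposite strand) overlap Ftl1 and have counts of their own equal to 44.7% and 33.0% of the Ftl1 count. They rose 2.64-fold and 2.16-fold. The rise thus lay between 2.16-fold and 2.64-fold in these rows, while the level of Ftl1 itself is uncertain. As these rows overlap or copy Ftl1, they may hold reads from it and are not independent support for its rise.

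Fth1, the ferritin heavy chain with ferroxidase activity, had 1787 and 1382 CPM with sesaminol, against 1358 and 1248 CPM in controls. The groups did not overlap, but sesaminol replicate 2 lay only just above control replicate 1. It averaged 1585 ± 286 CPM with sesaminol and 1303 ± 77.3 CPM in controls (SD, n = 2 each), with a log2 fold change of 0.28 ± 0.25 (SE; edgeR adjusted p = 0.665). Without sesaminol replicate 2, which leaves a single sesaminol library, the log2 fold change was 0.46. Over 14 alternatives it ran from 0.04 to 0.46. Fth1 and Ftl1 together took 0.252% (95% Wilson interval 0.250 to 0.255) and 0.238% (0.236 to 0.240) of all counts with sesaminol, against 0.171% (0.168 to 0.173) and 0.154% (0.152 to 0.156) in controls. These intervals hold counting error alone, and would be wider if both mates of each fragment had been counted.

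The balance of the 2 ferritin mRNAs differed between the groups, and protein was not measured. Scaled to transcript length, the ratio of Ftl1 to Fth1 was 0.473 and 0.544 in the sesaminol libraries, against 0.274 and 0.257 in the controls. All sesaminol values lay above all control values, with means of 0.508 ± 0.0496 with sesaminol and 0.266 ± 0.0125 in controls (SD, n = 2 each), 1.92-fold apart. An exact two-sided permutation test of 2 against 2 libraries cannot go below p = 0.333, and no other test of the ratios was run. A ratio shows that the counts of the 2 rows changed unequally, not that Fth1 stayed constant. The ratio uses the Ftl1 row without its copies, so its absolute value is as uncertain as the level of Ftl1. Against Tfrc, Ftl1 stood at 22.7 and 27.8 with sesaminol and 8.19 and 9.03 in controls, and Fth1 at 47.9 and 51.2 with sesaminol and 29.9 and 35.2 in controls, 2.93-fold and 1.52-fold apart by their means. Tfrc over Slc11a2 was 1.29 and 1.05 with sesaminol and 2.06 and 1.42 in controls, lower in both sesaminol libraries.

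**Figure D2:**
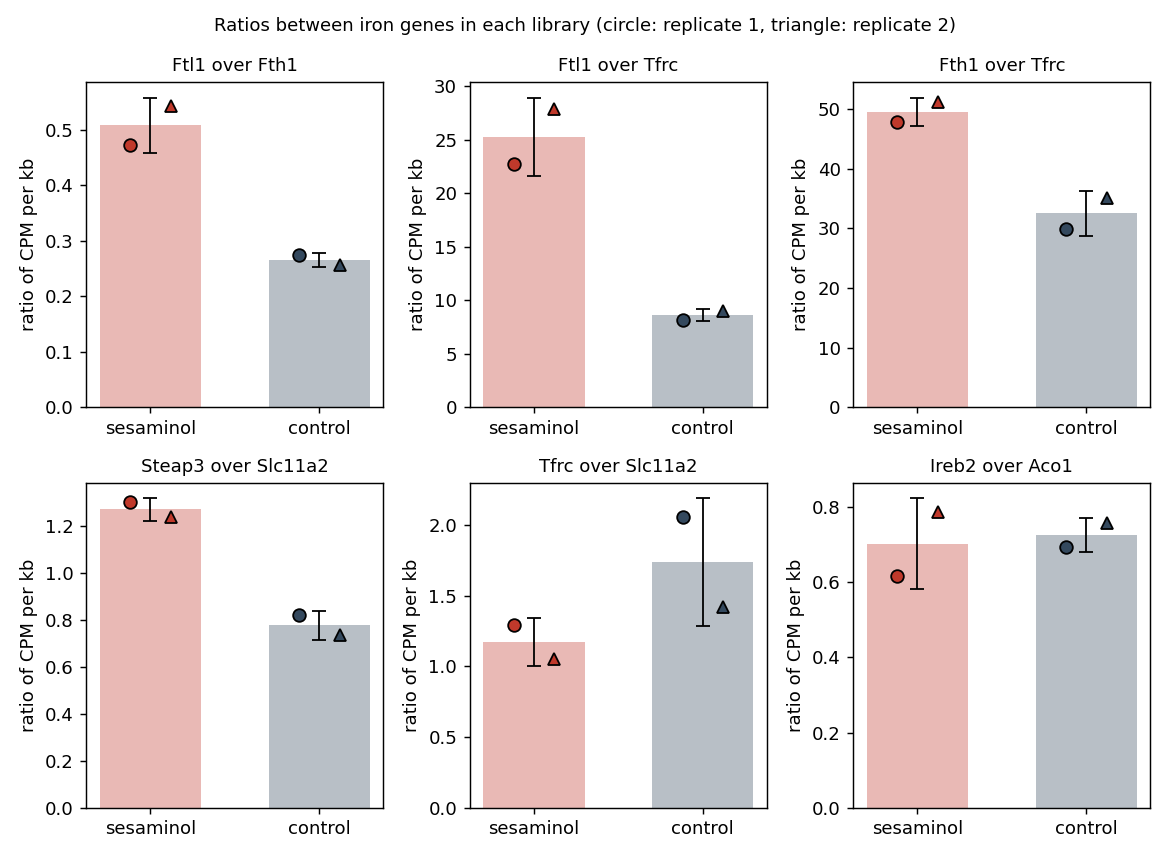
Ratios of CPM per kb between 6 pairs of iron genes in sesaminol (red) and control (grey) libraries, with bars at the mean and error bars of 1 SD (n = 2). Ftl1 over Fth1, Ftl1 over Tfrc, Fth1 over Tfrc and Steap3 over Slc11a2 lie higher in both sesaminol libraries, Tfrc over Slc11a2 lies lower, and the 2 groups overlap for Ireb2 over Aco1.

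Ncoa4, the receptor that delivers ferritin to autophagosomes so that its iron is released, had 22.5 and 23.1 CPM with sesaminol, against 14.4 and 21.7 CPM in controls. The sesaminol libraries agreed closely and the controls did not. Its log2 fold change was 0.33 ± 0.23 (SE; edgeR adjusted p = 0.533). In Ncoa4, 43.1% of stretches of 50 bases also occur in the processed pseudogene Gm6768, which had 28.9 and 24.5 CPM with sesaminol and 25.9 and 29.5 CPM in controls. Summed with Gm6768, Ncoa4 had 51.4 and 47.6 CPM with sesaminol, against 40.3 and 51.2 CPM in controls, and the log2 fold change was 0.11. The level of Ncoa4 in this table is therefore uncertain too.

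Slc40a1, the iron exporter ferroportin, was the least abundant member, with 6.96 and 12.4 CPM with sesaminol, against 12.3 and 13.8 CPM in controls. Sesaminol replicate 1 was low and sesaminol replicate 2 stood among the controls. The log2 fold change was -0.42 ± 0.30 (SE; edgeR adjusted p = 0.561). Without sesaminol replicate 2, which leaves a single sesaminol library, it was -0.90. Over 13 alternatives the value for Slc40a1 ran from -0.90 to -0.12.

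The genes of the 2 iron regulatory proteins differed little between the groups. Aco1, whose product is a cytosolic aconitase when it holds an iron-sulfur cluster and binds RNA when it does not, had 59.4 and 50.1 CPM with sesaminol, against 47.6 and 48.4 CPM in controls. Ireb2, which encodes the regulatory protein that is degraded when iron is plentiful, had 55.2 and 59.5 CPM with sesaminol, against 49.7 and 55.2 CPM in controls. Their log2 fold changes were 0.19 ± 0.17 and 0.13 ± 0.16 (SE; edgeR adjusted p = 0.658 and 0.785). Over 13 alternatives these ran from 0.02 to 0.31 for Aco1 and from 0.05 to 0.20 for Ireb2, and neither passed the test in any of them.

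The groups did not overlap in 6 of the 9 members, all higher with sesaminol, where 24.2% of all tested genes were separated in that direction and 22.8% in the other. Only Ftl1 and Steap3 of these members were called, and Ncoa4 overlapped once summed with Gm6768. Members with an iron-responsive element in the 5′ UTR were higher (Ftl1), not called (Fth1) and not called with a negative value (Slc40a1). Tfrc, with elements in the 3′ UTR, was not called and had a negative value, and Steap3, called higher, had no match. Binding in the 5′ UTR acts on translation, which mRNA counts do not measure, and whether any element acted was not tested.

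Compared per length, as CPM per kb of the main transcript, the order of levels was Fth1, Ftl1, Steap3, Tfrc, Slc11a2, Aco1, Ireb2, Ncoa4 and Slc40a1 with sesaminol. Fth1 stood at 1923 and 1488 CPM per kb with sesaminol and 1462 and 1344 CPM per kb in controls, and Slc40a1 at 2.07 and 3.68 CPM per kb with sesaminol and 3.65 and 4.10 CPM per kb in controls. Steap3, with 40.6 and 34.1 CPM per kb, could not be separated from Tfrc, with 40.1 and 29.1 CPM per kb, in the sesaminol libraries, nor Tfrc from Slc11a2, with 31.1 and 27.6 CPM per kb. In controls Steap3 ranked below both, at 19.5 and 19.8 CPM per kb against 23.8 and 26.9 CPM per kb for Slc11a2 and 48.9 and 38.2 CPM per kb for Tfrc, and those 3 genes did not overlap. Ncoa4 and Slc40a1 overlapped in controls. Steap3 over Slc11a2 was 1.30 and 1.24 with sesaminol and 0.820 and 0.734 in controls.

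**Figure D3:**
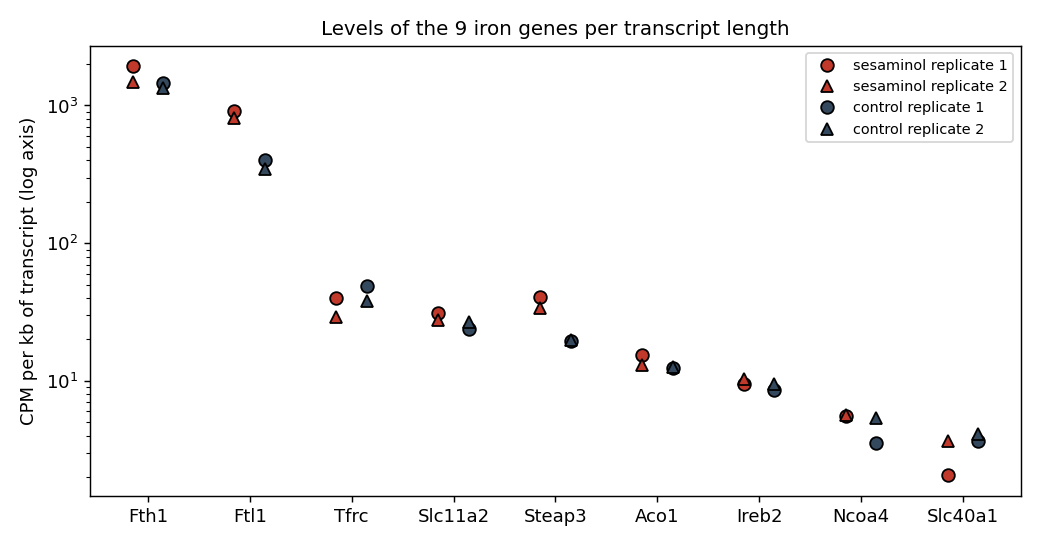
CPM per kb of main transcript (log axis) of the 9 iron genes in each library, ordered by their control mean, with sesaminol in red and control in grey. The 2 ferritin genes lie far above the rest, and Steap3 stands beside Tfrc and above Slc11a2 with sesaminol and below both in controls.

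Wider iron genes were described through 8 lists of 96 genes, of which 87 were tested. Of these 8 rose (9.2%, against 2.72% of all tested genes) and 2 fell, where 3.24% of all tested genes fell. The other 77 did not pass, and the median log2 fold change was 0.04. The lists were chosen with earlier results of these data known, so these shares cannot show an excess among iron genes. The counts of calls shrank without either control library and grew without either sesaminol library, and so did the counts over all genes. Of the 2 lists with the most calls, iron export and the hepcidin axis had 2 higher and 2 lower of 8 tested, and heme synthesis, transport and breakdown had 3 higher of 19. The others had 1 higher of 9 for iron import and 2 higher of 24 for mitochondrial iron and iron-sulfur assembly. In transferrin receptor trafficking (9 tested), storage and chaperones (4), sensing and its regulators (9) and other mRNAs known for an iron-responsive element (5), 0 were called by edgeR. An unadjusted p under 0.05 was reached by 4 genes of the first of these lists and by 0 of the other 3, against 17.9% of all tested genes.

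Scara5, a scavenger receptor known to take up ferritin, had 74.6 and 77.8 CPM with sesaminol, against 22.6 and 25.9 CPM in controls. The groups were far apart, and it rose 3.14-fold (edgeR adjusted p = 0.0014), the largest rise among those called. Of the other import genes, Hfe, a partner of the transferrin receptor, had 1.21 and 0.671 CPM with sesaminol against 0 (which allows up to 0.298 CPM) and 0.292 CPM in controls. Hfe rested on 18 and 18 counts with sesaminol and 0 and 4 in controls, and was not called (edgeR adjusted p = 0.274). Tfr2 and Slc39a8, a further transferrin receptor and a metal transporter, had log2 fold changes of -1.20 and 0.69 (edgeR adjusted p = 0.408 and 0.434). Steap4 and Cybrd1, other iron reductases, were too low to be tested.

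Among genes of iron oxidation and export, the ferroxidase Cp rose and the ferroxidase Hephl1 fell. Cp, ceruloplasmin, had 88.4 and 81.4 CPM with sesaminol, against 36.1 and 36.2 CPM in controls, and rose 2.35-fold (edgeR adjusted p = 0.00311). Hps3, on the opposite strand, overlaps Cp and has a count of its own equal to 33.3% of the Cp count. Hephl1, a ferroxidase related to hephaestin, had 9.37 and 8.28 CPM with sesaminol, against 29.5 and 26.9 CPM in controls, and fell 3.20-fold (edgeR adjusted p = 0.00229). Heph, hephaestin itself, had 2.28 and 1.42 CPM with sesaminol, against 1.59 and 0.730 CPM in controls, with overlapping groups (edgeR adjusted p = 0.687). Scara5, Cp and Hephl1 kept their call in all 13 alternatives.

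Hjv, the hemojuvelin coreceptor of the hepcidin pathway that skeletal muscle expresses, had 169 and 110 CPM with sesaminol, against 311 and 289 CPM in controls. It fell 2.15-fold (edgeR adjusted p = 0.0226), beside the lower myotube markers given above. Neo1, neogenin, which binds hemojuvelin, had 224 and 218 CPM with sesaminol, against 88.7 and 106 CPM in controls, and rose 2.27-fold (edgeR adjusted p = 0.00592). Without control replicate 1 or 2 the edgeR adjusted p was 0.126 and 0.0932 for Hjv and 0.147 and 0.0507 for Neo1, the highest over 13 alternatives for each. Hamp, which encodes hepcidin itself, had 0 and 4 counts with sesaminol and 0 counts in both controls, which allow up to 0.298 and 0.219 CPM, and was not tested.

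In mitochondria, Slc25a37, the iron importer mitoferrin-1, had 149 and 179 CPM with sesaminol, against 82.0 and 99.8 CPM in controls, and rose 1.80-fold (edgeR adjusted p = 0.0293). Hscb, a cochaperone of iron-sulfur assembly, had 15.8 and 17.4 CPM with sesaminol, against 9.34 and 8.47 CPM in controls. It rose 1.87-fold (edgeR adjusted p = 0.0491), at the edge of the threshold, and missed it in 8 of 13 alternatives. Fdx1 and Cisd1, a ferredoxin and an iron-sulfur protein of the outer membrane, had log2 fold changes of 0.80 and 0.52 (edgeR adjusted p = 0.0813 and 0.114). Fdx1 passed with the replicate block (edgeR adjusted p = 0.0457) and without the filter on low counts (0.0462). Over 13 alternatives the log2 fold change ran from 0.71 to 0.87 for Fdx1 and from 0.45 to 0.59 for Cisd1. Without control replicate 1 or 2 the edgeR adjusted p was 0.536 and 0.178 for Slc25a37 and 0.305 and 0.486 for Hscb. The lower mitochondrial share of sesaminol replicate 2 stands beside these values, and its part in them was not tested.

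In heme handling, Hmox1, which frees iron from heme, had 100.2 and 106 CPM with sesaminol, against 56.6 and 58.1 CPM in controls, and rose 1.80-fold (edgeR adjusted p = 0.0153). Slc48a1, which carries heme out of endosomes and lysosomes, had 225 and 185 CPM with sesaminol, against 126 and 110 CPM in controls. It rose 1.73-fold (edgeR adjusted p = 0.0376), and Hdac7, which overlaps it, has a count of its own equal to 28.4% of the Slc48a1 count. Pgrmc1, a heme-binding membrane protein, had 94.0 and 90.4 CPM with sesaminol, against 60.0 and 58.3 CPM in controls, and rose 1.56-fold (edgeR adjusted p = 0.0465). Without control replicate 1 or 2 the edgeR adjusted p was 0.264 and 0.233 for Hmox1, 0.307 and 0.599 for Slc48a1 and 0.524 and 0.588 for Pgrmc1, which also missed the threshold with RLE size factors (0.0561) and limma-voom (0.0502). Uros, a heme synthesis enzyme whose row shares its locus with Bccip, had a log2 change of -0.47 (edgeR adjusted p = 0.183).

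Among genes of the lists with 0 calls, Exoc6, an exocyst subunit needed for transferrin recycling in mouse red cell precursors, came nearest, with 10.5 and 11.3 CPM with sesaminol against 18.9 and 19.2 CPM in controls (edgeR adjusted p = 0.055). It passed with the replicate block (edgeR adjusted p = 0.0249) and with no filter on low counts (0.0386), and over 13 alternatives its log2 fold change ran from -0.85 to -0.73. The recycling GTPase Rab11a, the clathrin heavy chain Cltc and the sorting nexin Snx3 had log2 fold changes of 0.57, 0.56 and 0.40 (edgeR adjusted p = 0.0877, 0.131 and 0.252). Rab11a passed with the replicate block (edgeR adjusted p = 0.0345). Over 13 alternatives the log2 fold change ran from 0.47 to 0.65 for Rab11a and from 0.43 to 0.69 for Cltc. For storage, Herc2, a ligase that marks Ncoa4 for degradation, the autophagy receptor Tax1bp1 and the iron chaperones Pcbp2 and Pcbp1 had log2 fold changes of 0.40, 0.25, 0.13 and -0.12, with edgeR adjusted p from 0.331 to 0.872. In sensing, Cul1, Ciao2a, Ciao2b and Mms19 lay between -0.31 and -0.19, and of the other mRNAs known for an element Cdc42bpa, Pfn2 and Cdc14a lay between 0.20 and 0.42 (edgeR adjusted p from 0.381 to 0.893). The motif searched above matched 1 of the 6 genes of that list, Alas2, which was too low to be tested, and none of the 3 just named.

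**Figure D4:**
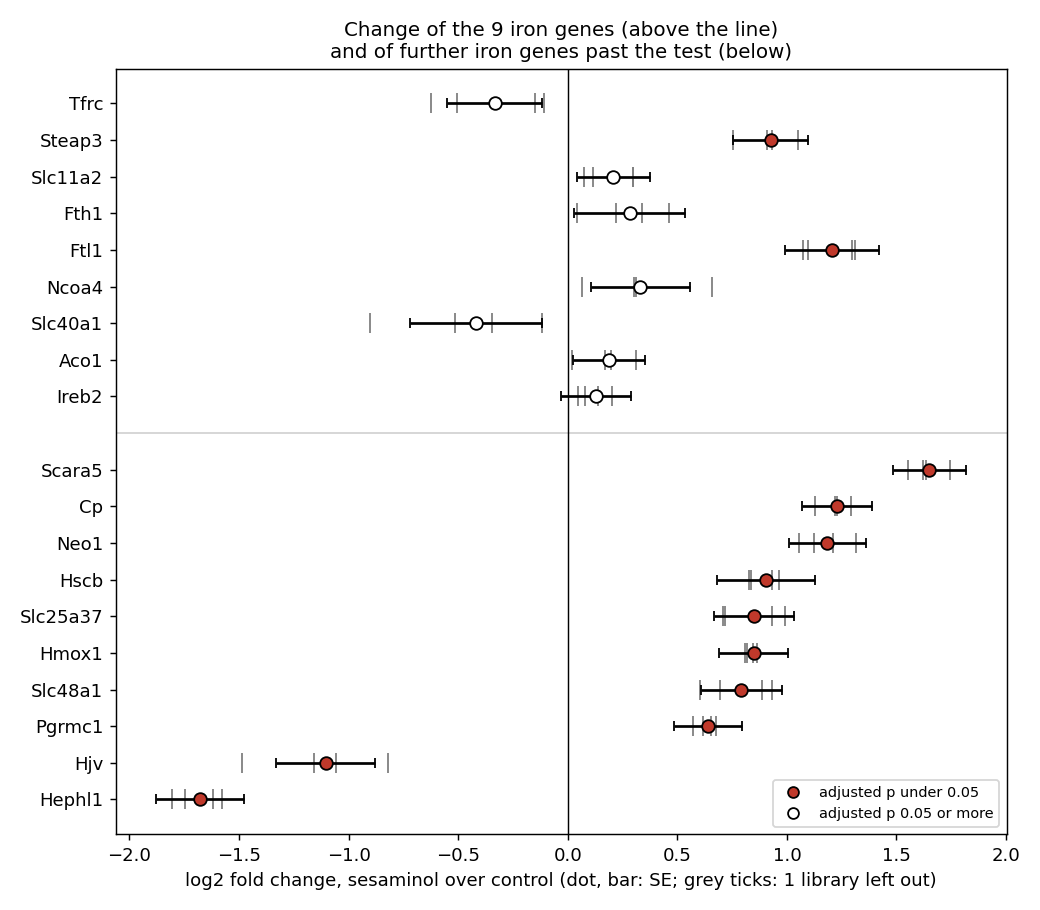
Log2 fold change of sesaminol over control for the 9 iron genes (above the line) and the 10 further iron genes that passed the test (below), as dots with bars of 1 SE. Red dots passed and white dots did not, and grey ticks give the value with 1 of the 4 libraries left out. Ftl1 and Steap3 are the red dots above the line.

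In 4 libraries, the profiles nearest to Ftl1 by Euclidean distance between centred log2 CPM values, among 12877 genes of at least 5 mean CPM, were Vegfd and Ampd3 (0.0752 and 0.0822). Nearest to Steap3 were Dnah14, C230062I16Rik and Gm10169 (0.0343, 0.0473 and 0.0555). With 4 values each, such distances are a description only.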

How the data were processed

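Per the labels' protocols, mRNA was enriched with poly(A) beads before library preparation for Illumina. The authors deposited whole-number raw counts for each gene, with no normalization. The submitters' processing notes name featureCounts, edgeR, fastp, Picard, FastQC and MultiQC, and GRCm38 as the build. Which aligner and strand setting were used, and what was done with multi-mapping reads, is not given in the sources used here. Small counts were mostly even (75.8% to 79.6% of values from 1 to 12), so both reads of a pair may have been counted.

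The filterByExpr function (at least 10 counts, total of at least 15) left 18998 genes, which were scaled by TMM and tested with edgeR 4.0.16 (glmQLFit and glmQLFTest, R 4.3.3) on all 4 libraries with no covariate, two-sided. The log2 fold change is sesaminol over control, and its SE is the estimate divided by the root of F. CPM values use the effective library sizes, and the floor of a count of 0 is 3 counts. Gene positions, transcript lengths (the principal coding transcript) and UTRs are from GENCODE M21, to which 52489 of 52636 identifiers matched. Older symbols were matched through RefSeq synonyms.

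The members and lists were chosen with earlier results of these data known. The text names all members, every called gene of the further lists and up to 4 genes of each list, called ones included, by smallest adjusted p. Heph was named after its values were seen. Values of 2 further genes that this choice or the profile distances would name are not reported here. Alternatives were other scalings, filters, DESeq2 1.42.0, limma-voom (limma 3.58.1), a replicate block, halved counts, summed copies and leaving out each library. On simulated data for the comparison of sesaminol with control (18228 genes), edgeR recovered 48% of 2-fold and 87% of 4-fold changes with 22 false calls. The false calls are a count, to be set against the calls made rather than against all genes. The number of changed genes is not given here, so whether the share of false calls stayed within the threshold cannot be read from these values.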

Additional observations from a re-analysis of the deposited data

How the results depend on the processing

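The count of iron genes that rose stayed at 2 under other scalings, filters, DESeq2, limma-voom, the replicate block and halved counts, and the count that fell stayed at 0. With 1 library left out, 0 to 3 rose and 0 to 1 fell, and 0 rose without either control. The direction of each of the 9 held in all alternatives run. Over all genes, leaving out 1 library gave 163 to 1918 higher and 276 to 2724 lower, no filter on low counts gave 928 and 985, and the replicate block gave 893 and 982. The replicate numbers could not be shown to pair libraries (deviations of equal numbers correlated at -0.0624 across 18998 genes, which are not independent), and the block gave 10 further iron genes higher and 3 lower. Without the filter 4 further iron genes were lower, and with 1 library left out 2 to 15 were higher and 1 to 11 lower. The alternatives for the further iron lists, and the sums with Gm6768 and Gm6977, were chosen after seeing the data. Of genes that did not pass, Pcbp1 and Cdc14a changed sign without sesaminol replicate 2 and Pcbp2 without sesaminol replicate 1. With 1 library left out their log2 fold changes ran from -0.40 to 0.090 for Pcbp1, from -0.57 to 0.63 for Cdc14a and from -0.19 to 0.38 for Pcbp2. Slc39a8, Herc2 and Uros had log2 fold changes of 0.91, 0.47 and -0.565 without sesaminol replicate 1. The cause of these shifts was not tested. No copy is named after Fth1 in the table, so the planned sum of its copies was not run. A library left alone in its group is assumed to vary like the other group. Depth limits the least abundant genes: Slc40a1 rested on 104 to 333 counts per library, and Hamp on 0 to 4.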

Other observations

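Gm6977, a processed pseudogene that shares 6.59% of the stretches of 50 bases of Fth1, had 62 and 778 counts with sesaminol, against 38 and 52 counts in controls. Most of its counts thus came from sesaminol replicate 2, and it was not called (edgeR adjusted p = 0.14). Counts were recorded for 26531 and 31253 genes in the sesaminol libraries and for 26814 and 27336 genes in controls, without adjustment for depth. Summed with Gm6977, Fth1 had 1791 and 1411 CPM with sesaminol, against 1362 and 1252 CPM in controls.

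Markers of red cell precursors, in which iron handling is best known, stayed low, with a summed level of 9.57 and 6.08 CPM with sesaminol and 8.44 and 7.81 CPM in controls. Among 3 tested, 0 were called by edgeR, with 0 at an unadjusted p under 0.05. Endothelial markers summed to 5.42 and 8.46 CPM with sesaminol and 8.14 and 6.28 CPM in controls, with 0 of 4 called. Of 5 fibroblast markers tested, Col1a1 fell, and the sum was 5201 and 4737 CPM with sesaminol and 7999 and 9211 CPM in controls. Most of that sum was Col3a1, with 4349 and 4091 CPM with sesaminol and 6834 and 7978 CPM in controls, which was not called (edgeR adjusted p = 0.21). In 3 of the 5 the groups were separated, all lower, while Pdgfra and Dcn overlapped, Dcn with a log2 fold change of 0.22.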
